A study of Mus musculus with 6 samples.

Results

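The 7 genes Tmc1, Tmc2, Tmie, Lhfpl5, Cib2, Cdh23 and Pcdh15, which encode the parts of the mechanoelectrical transduction (MET) apparatus of hair cells, were taken by symbol from count tables of 24411 genes, and all 7 had enough reads to be tested. They were compared between Kir2.1-OE mice and their control littermates in 6 RNA-sequencing libraries of cochlear sensory epithelium from postnatal day 9 (P9). The Kir2.1-OE mice were heterozygous both for Otof-rtTA and for a tet-o Kir2.1 transgene linked to tau-lacZ, on C57BL/6N, and drank water with 0.5 mg/ml doxycycline (DOX), which switches on Kir2.1, an inward rectifier K+ channel. The controls carried the heterozygous Otof-rtTA allele without the Kir2.1 transgene and were exposed to DOX in the same way. Each library was 1 pool of 8 cochleae from 4 mice of either sex, with 3 pools per genotype, so the pool was the replicate. The Otof promoter drives rtTA mainly in inner hair cells (IHCs), whereas the libraries hold RNA of both types of hair cell and of the tissue around them, so fewer cells of a type and less RNA per cell cannot be told apart in any of the values below. The comparison asks whether these genes are transcribed at another level when IHCs lack their intrinsic Ca2+ action potentials, while those evoked by Ca2+ waves of the neighbouring cells remain possible.

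A hair cell senses sound by the deflection of its stereocilia, which stand in rows of rising height. A tip link runs from the top of each shorter stereocilium to the side of the taller one behind it, and its tension opens the MET channel at its lower end. Cadherin 23, from Cdh23, forms the upper part of the tip link and protocadherin 15, from Pcdh15, forms the lower part. TMC1 and TMC2 form the pore of the channel, and in the mouse cochlea Tmc2 is expressed early and gives way to Tmc1 after birth. TMIE, LHFPL5 and the Ca2+-binding protein CIB2 are further parts of the complex, needed for it to assemble at the stereocilia tips and to conduct.

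Between 35430940 and 41205047 reads were assigned to genes per library, and normalized counts are counts scaled to the effective library size by TMM. A count of 0 allows a share of up to 8.47e-06% of a library, a limit that covers counting error only. Kcnj2, which encodes Kir2.1, checked the labels, with 3612, 3813 and 2213 normalized counts in the Kir2.1-OE pools and 235.8, 228.1 and 226.0 in the controls. Its log2 fold change was 3.80 (SE 0.199; edgeR's quasi-likelihood test, Benjamini-Hochberg adjusted over 15303 genes, adjusted p = 7.0e-05). A gene was called where its adjusted p fell under 0.05 and its fold change exceeded 1.5. Of all genes tested, 15.5% were called higher in Kir2.1-OE and 5.08% lower, the shares to set beside the marker counts below. Markers of hair cells were present in all libraries. The hair cell genes of both types summed to 8524 to 9910 normalized counts in Kir2.1-OE and 11007 to 13769 in controls, and 2 of the 9 were called lower, with a median log2 fold change of -0.25 (-0.18 with the length and GC offsets described below). Smpx (-0.70, and -0.20 with the offsets) and Acbd7 (-0.72, and -0.0063) were the genes called, and with the offsets 0 of the 9 were called. Rbm24 at -0.47 and Chrna9 at -0.37 were lower at the adjusted p-value alone, and Pou4f3, the transcription factor needed for hair cell survival, was at 0.05 (adjusted p = 0.750). IHC genes summed to 13993 to 16858 in Kir2.1-OE against 11940 to 13565, with 2 of 5 called higher and 0 lower. These were Otof (0.76, and -0.02 with the offsets) and Slc7a14 (1.36, and 0.76). Slc17a8, Cabp2 and Atp2a3, at 0.09, -0.13 and 0.20, did not pass. Outer hair cell genes summed to 29212 to 35592 against 32175 to 39504, with 2 of 6 called higher and 0 lower. These were Slc26a5 (0.62, and 0.76 with the offsets) and Ikzf2 (0.60, and 0.21), and with the offsets Aqp11 was called lower (-0.69). Markers of other tissue also differed between the genotypes, in both directions, but the calls among fibrocyte genes were near the shares of all genes. Of the 5 glial genes, 1 was called higher, but 5 were higher at the adjusted p-value alone, beside 27.3% of all genes. With the offsets 2 of the 5 glial genes were called higher, beside 6.87% of all genes. The 6 genes of spiral ganglion neurons summed to 19292 to 49600 in Kir2.1-OE against 8587 to 14419, with 4 called higher, the 5 glial genes to 350915 to 461474 against 255655 to 325821, with 1 called higher, and the 7 cartilage and bone genes to 807432 to 954542 against 388297 to 540121, with 2 called higher. The 9 supporting cell genes summed to 113029 to 132438 against 100055 to 108462, with 3 called higher. The 5 erythroid genes summed to 10855 to 13789 in Kir2.1-OE against 17918 to 44665, with 3 called lower, and the melanocyte genes to 362.3 to 464.4 against 869.3 to 1061, with 2 of the 3 tested called lower. Of 6 macrophage and 5 fibrocyte genes, 0 and 1 were called higher and 0 lower. The part of such tissue in the differences below was not tested.

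The 7 genes covered a wide span of levels, with Cib2 at the top and Tmc2 at the bottom in both genotypes. Per kilobase of the longest annotated transcript, the controls held 2599 ± 281 normalized counts (SD, n = 3) of Cib2, 932 ± 78.3 of Lhfpl5 and 463.9 ± 48.8 of Tmc1. Tmie followed with 71.1 ± 4.72 normalized counts per kilobase, and Cdh23 with 39.2 ± 9.07 and Pcdh15 with 39.0 ± 4.23 could not be ordered, since their libraries overlapped. Tmc2 was last with 4.60 ± 3.31. In Kir2.1-OE the levels were 1822 ± 155 for Cib2, 633 ± 35.4 for Lhfpl5, 456 ± 57.2 for Tmc1, 84.6 ± 8.85 for Tmie, 84.1 ± 15 for Pcdh15, 72.9 ± 11.5 for Cdh23 and 4.99 ± 0.984 for Tmc2 (SD, n = 3). Tmie, Pcdh15 and Cdh23 overlapped there, although in the controls both tip link genes lay below Tmie. The order of the means in controls was the same when the median transcript or all exons together set the length. By both of those lengths, though, Cdh23 stood above Pcdh15 without overlap in controls and in Kir2.1-OE. With the median transcript these levels were 116 ± 27.0 and 67.3 ± 7.30 in controls, and 217 ± 34.0 and 145 ± 25.9 in Kir2.1-OE (SD, n = 3). Tmie also stood above the tip link genes in Kir2.1-OE by both of those lengths. By the median transcript Tmc1 (770 ± 96.5) came before Lhfpl5 (724 ± 40.5; SD, n = 3) in Kir2.1-OE, though their pools overlapped.

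**Figure D1:**
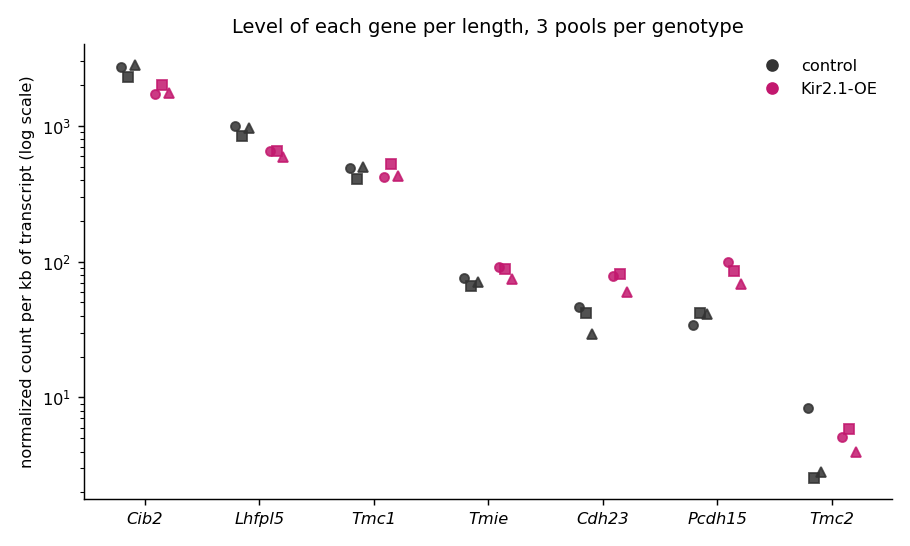
Level of each of the 7 genes in each pool, as normalized counts per kilobase of the longest annotated transcript (log axis), with controls in grey and Kir2.1-OE in red and the replicate number as circle (1), square (2) or triangle (3). Cib2, Lhfpl5 and Tmc1 lie well above the others, Cdh23 and Pcdh15 overlap Tmie in Kir2.1-OE by this length, and Tmc2 is the lowest in every pool.

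Against this order, the genotypes differed in opposite directions at the tip link and at LHFPL5 and CIB2, and not beyond the error at the pore. These directions are those of TMM scaling, and with offsets for transcript length and GC content, given further on, the Cdh23 difference turned to -0.17 (adjusted p = 0.364), Cib2 no longer passed (adjusted p = 0.0775) and 0 of the 7 genes were called. Cdh23 and Pcdh15 were called higher in Kir2.1-OE, 2 of the 7, beside 15.5% of all genes tested, and 0 of the 7 were called lower, beside 5.08%. At the adjusted p-value alone, Lhfpl5 and Cib2 were also lower, which made 2 of 7 in each direction beside 27.3% of all genes higher and 23.5% lower. The median log2 fold change of the 7 was 0.13, and that of all genes was 0.01.

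**Figure D2:**
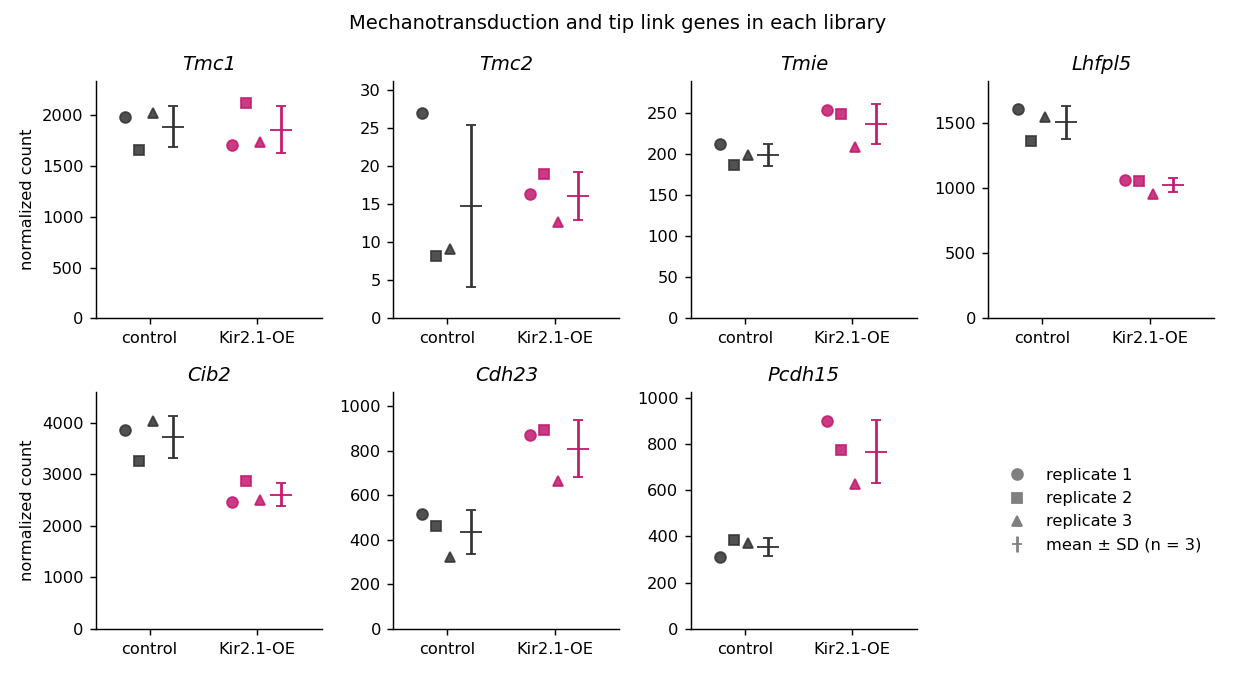
Normalized counts of the 7 genes in each pool on linear axes from 0, with symbols for the replicate number and bars for the mean ± SD of 3 pools. Cdh23 and Pcdh15 are higher in every Kir2.1-OE pool than in every control pool, Lhfpl5 and Cib2 are lower in every one, and Tmc1, Tmc2 and Tmie overlap.

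Pcdh15, the lower part of the tip link, lies on chromosome 10 (mm10, chr10:73099342-74649737, plus strand, ENSMUSG00000052613.16), where its 41 annotated transcripts span 1550.4 kb. It had 898, 772 and 625 normalized counts in the Kir2.1-OE pools, in the order of their replicate numbers, and 311, 383 and 372 in the controls. The lowest Kir2.1-OE pool lay far above the highest control pool. The means of 765 ± 137 and 355 ± 38.5 (SD, n = 3) differed 2.16-fold, with a log2 fold change of 1.11 (SE 0.145, 95% interval 0.78 to 1.43; edgeR's quasi-likelihood test, Benjamini-Hochberg adjusted p = 3.77e-04). Against a null of 0.6 on the log2 scale, edgeR's glmTreat gave an adjusted p of 0.0175, which 5.44% of all genes also passed in this direction.

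Cdh23, the upper part, lies on the same chromosome (chr10:60302748-60696490, minus strand, ENSMUSG00000012819.15) and has 16 annotated transcripts. It had 870, 894 and 663 normalized counts in Kir2.1-OE and 518, 463 and 323 in controls. Here too the groups did not overlap, which held in this direction for 31.7% of all genes tested. The means were 809 ± 127 and 435 ± 101 (SD, n = 3), a 1.86-fold difference with a log2 fold change of 0.90 (SE 0.177, 95% interval 0.50 to 1.29; edgeR's quasi-likelihood test, Benjamini-Hochberg adjusted p = 0.00268). Unlike Pcdh15, it did not pass glmTreat against 0.6 (adjusted p = 0.188), and its call ended with the length and GC offsets (-0.17). The table's 4632428N05Rik (Vsir in the annotation) lies on the opposite strand within an intron of Cdh23, shares no exon base with it, and had a log2 fold change of 0.32 (adjusted p = 0.0768).

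Since cadherin 23 and protocadherin 15 meet in 1 link, the ratio of their reads was also taken within each library, where scaling to library size cancels. The Cdh23 to Pcdh15 ratio was 0.969, 1.16 and 1.06 in the Kir2.1-OE pools and 1.66, 1.21 and 0.868 in the controls. The controls spread on both sides of the Kir2.1-OE pools. On the log2 scale the ratio was 0.08 ± 0.128 against 0.27 ± 0.469 (SD, n = 3), a difference of -0.19 by which the genotypes could not be told apart (exact permutation test, two-sided, p = 0.6, where 0.1 is the smallest value 3 pools against 3 allow). Without control replicate 1 the difference was 0.05 and without control replicate 3 it was -0.42, so its sign and size rested on single pools. The length and GC offsets, which do not cancel between genes of unequal length, gave -0.72.

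Lhfpl5 encodes the tetraspan protein that joins protocadherin 15 to the channel (chr17:28575641-28585679, plus strand, ENSMUSG00000062252.9). It had 1063, 1053 and 959 normalized counts in the Kir2.1-OE pools and 1609, 1367 and 1551 in controls. Every Kir2.1-OE pool lay below every control pool, and the Kir2.1-OE pools stood close together. The means of 1025 ± 57.3 and 1509 ± 127 (SD, n = 3) gave a log2 fold change of -0.56 (SE 0.087, 95% interval -0.75 to -0.36; edgeR's quasi-likelihood test, Benjamini-Hochberg adjusted p = 8.43e-04), short of the 1.5-fold threshold.

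Cib2, whose protein binds the TMC proteins (chr9:54544794-54560218, minus strand, ENSMUSG00000037493.6, 1 annotated transcript), had 2458, 2866 and 2509 normalized counts in Kir2.1-OE and 3871, 3268 and 4034 in controls. It too was lower in all 3 Kir2.1-OE pools than in all 3 controls, as were 29.9% of all genes. The means were 2611 ± 222 and 3724 ± 403 (SD, n = 3), with a log2 fold change of -0.51 (SE 0.0965, 95% interval -0.73 to -0.30; edgeR's quasi-likelihood test, Benjamini-Hochberg adjusted p = 0.00211), and of -0.21 with the length and GC offsets (adjusted p = 0.0775). Both genes lie so near the 1.5-fold threshold that leaving out Kir2.1-OE replicate 2 or control replicate 2 called both lower, and leaving out Kir2.1-OE replicate 1 called Lhfpl5 alone. Sh2d7, on the opposite strand, shares 227 exon bases with Cib2 but held far fewer reads, with means of 38.1 normalized counts in Kir2.1-OE and 39.6 in controls.

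Tmc1 (chr19:20783458-20954202, minus strand, ENSMUSG00000024749.9), the main pore gene at this age, had 1705, 2126 and 1742 normalized counts in Kir2.1-OE and 1983, 1661 and 2024 in controls. The highest pool was of Kir2.1-OE and the lowest a control, and the groups overlapped. The means of 1858 ± 233 and 1889 ± 199 (SD, n = 3) gave a log2 fold change of -0.02 with a 95% interval of -0.27 to 0.22 (SE 0.108; edgeR's quasi-likelihood test, Benjamini-Hochberg adjusted p = 0.871). A change of 1.5-fold in either direction, 0.585 on the log2 scale, lay outside that interval.

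Tmc2 (chr2:130195194-130264445, plus strand, ENSMUSG00000060332.9), the early pore gene, was near the limit of detection, with 16, 19 and 12 reads in Kir2.1-OE and 27, 9 and 9 in controls. Control replicate 1 stood above all other pools and the other controls below them. The means of 16.0 ± 3.16 and 14.8 ± 10.6 normalized counts (SD, n = 3) gave a log2 fold change of 0.13 whose 95% interval reached from -1.0 to 1.25 (edgeR's quasi-likelihood test, Benjamini-Hochberg adjusted p = 0.854). Without control replicate 1 the log2 fold change was 0.88 (adjusted p = 0.160), and without control replicate 2 it was -0.17, so no direction could be given at this depth.

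Reads of Tmc1 far outnumbered those of Tmc2 in every pool. Tmc1 had 103.8, 111.9 and 137.2 times the reads of Tmc2 in the Kir2.1-OE pools and 73.2, 203.1 and 220.9 times in the controls, before any division by length. The Kir2.1-OE pools fell between the lowest control and the other two. The log2 ratio was 6.87 ± 0.208 in Kir2.1-OE and 7.22 ± 0.887 in controls (SD, n = 3), a difference of -0.35 (exact permutation test, two-sided, p = 0.5). Its size rested on single controls, with -0.86 without control replicate 1, -0.12 without control replicate 2 and -0.06 without control replicate 3.

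Tmie (chr9:110865711-110880113, minus strand, ENSMUSG00000049555.10), which encodes a small membrane protein of the channel complex, had 253.5, 248.8 and 208.4 normalized counts in Kir2.1-OE and 212.7, 186.3 and 198.5 in controls. Only Kir2.1-OE replicate 3 lay below the highest control. The means were 236.9 ± 24.8 and 199.2 ± 13.2 (SD, n = 3), with a log2 fold change of 0.25 and a 95% interval of -0.07 to 0.57 (edgeR's quasi-likelihood test, Benjamini-Hochberg adjusted p = 0.163). Als2cl shares 244 exon bases with Tmie on the opposite strand and had a log2 fold change of 0.52 (adjusted p = 0.0258). The sources used here give no strand setting for the counting, so reads of the shared stretch cannot be assigned to 1 of them and the Tmie values are uncertain to that extent.

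Over all genes the difference rose with the length of the transcripts. Among these genes the longest and the shortest differed in the same way, but the values did not follow length step by step. Cdh23 and Pcdh15 have the longest transcripts of the 7, with 11096 and 9104 nt, and Cib2 and Lhfpl5 the shortest, with 1433 and 1619 nt. Tmc1 with 4073 nt, Tmc2 with 3216 nt and Tmie with 2802 nt lie between. Over 15200 genes with a known length, Spearman's rho between log2 fold change and transcript length was 0.556, a description across genes that share the same 6 libraries. Of the 886 genes with a transcript of at least 8000 nt, 64% were called higher in Kir2.1-OE, and their median log2 fold change was 0.81 with quartiles of 0.41 and 1.16. Cdh23 at 0.90 and Pcdh15 at 1.11 both lay within those quartiles. Of the 3157 genes under 2000 nt, 15.2% were called lower and 48.9% were lower at the adjusted p-value alone, and their median was -0.34 with a lower quartile of -0.53. Cib2 at -0.51 lay just inside that quartile and Lhfpl5 at -0.56 just below it. Of the 8588 genes from 2000 to 5000 nt, 9.43% were called higher and 3.16% lower, and their median was -0.01.

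**Figure D3:**
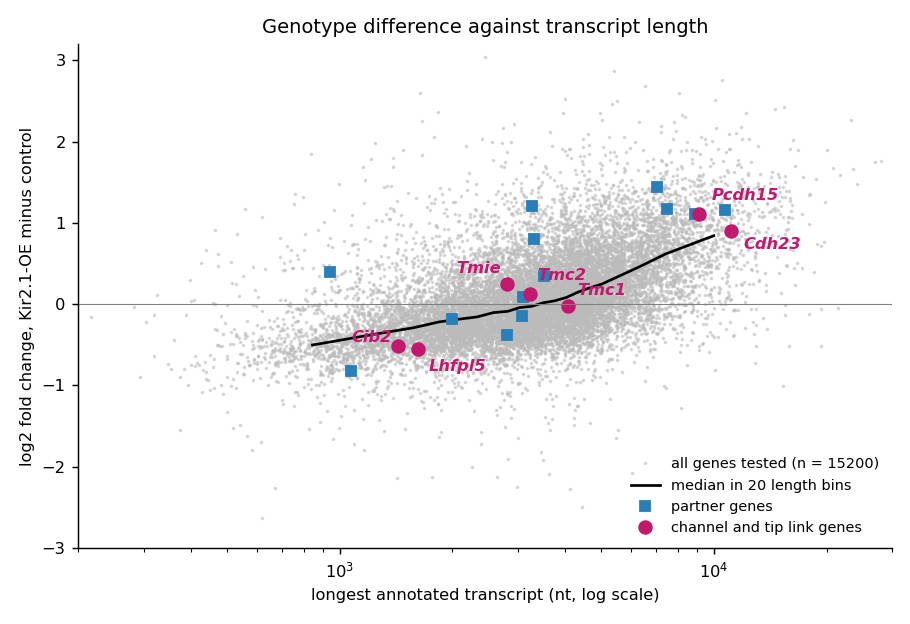
Log2 fold change, Kir2.1-OE minus control, of each gene with a known length (grey) against the length of its longest annotated transcript in nt (log axis), with the median in 20 bins of length as a black line, 13 partner genes as blue squares and the 7 channel and tip link genes as red circles. Genes beyond the axis limits, such as Kcnj2 at 3.80, are not drawn. The line climbs from below 0 for short transcripts to above 0 for long ones. Cib2 and Lhfpl5 lie on the side of the short transcripts, and Cdh23 and Pcdh15 on that of the long ones.

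The comparison was therefore repeated with an offset for each gene and library, from the smooth trend of that library's counts on transcript length and GC content. At the length and GC content of Cdh23 this trend alone amounted to a log2 difference of 1.07 between the genotypes, at those of Pcdh15 to 0.54, at those of Cib2 to -0.30 and at those of Lhfpl5 to -0.21. It amounted to 0.06 or less in size for Tmie, Tmc1 and Tmc2. With the offsets the log2 fold change of Cdh23 was -0.17 (95% interval -0.48 to 0.14, adjusted p = 0.364), so its call ended and its sign turned. Pcdh15 was higher at 0.57 (95% interval 0.27 to 0.86, adjusted p = 0.0116), and Lhfpl5 was lower at -0.35 (95% interval -0.53 to -0.16, adjusted p = 0.0124), both below 1.5-fold. Cib2 at -0.21 did not pass (adjusted p = 0.0775). Tmc1 at 0.01, Tmc2 at 0.13 and Tmie at 0.19 remained without a difference beyond the error, with adjusted p-values of 0.964, 0.860 and 0.301 (edgeR's quasi-likelihood test, Benjamini-Hochberg adjusted throughout).

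With the offsets, 0 of the 7 genes were called in either direction at 1.5-fold, beside 6.87% of all genes higher and 2.97% lower. At the adjusted p-value alone 1 was higher and 1 lower, beside 16% and 16.7% of all genes. The median log2 fold change of the 7 was then 0.01, and rho over all genes was 0.0194. When single pools were left out as well, Lhfpl5 kept an adjusted p under 0.05 each time, with log2 fold changes of -0.40 to -0.30. Pcdh15 ranged from 0.47 to 0.67 and lost the threshold without Kir2.1-OE replicate 1 (adjusted p = 0.0571), and Cib2 passed it without control replicate 2 (adjusted p = 0.0259). The offsets rest on the longest annotated transcript, whereas the median transcript is 3734 nt for Cdh23 and 5272 nt for Pcdh15. The cause of the trend with length was not tested.

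**Figure D4:**
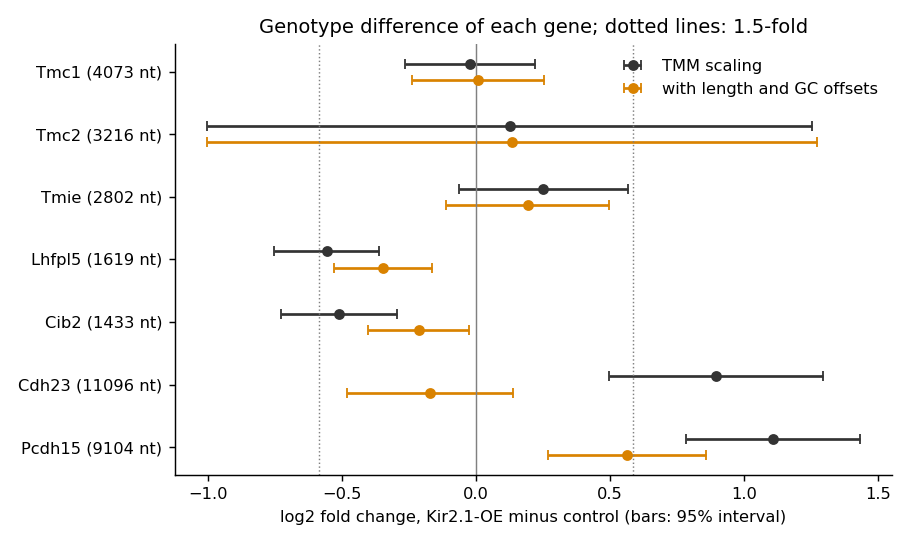
Log2 fold change, Kir2.1-OE minus control, of the 7 genes with 95% intervals, with TMM scaling alone (grey) and with the length and GC offsets (orange), the transcript length beside each name and dotted lines at 1.5-fold. Cdh23 moves from 0.90 to -0.17 and Pcdh15 from 1.11 to 0.57, Lhfpl5 and Cib2 move towards 0, and Tmc1, Tmc2 and Tmie barely move.

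With TMM scaling alone, Cdh23 with Pcdh15, and Lhfpl5 with Cib2, lay on the same side in every pool. With the offsets the tip link pair parted, with Cdh23 at -0.17 and Pcdh15 at 0.57. The 250 bases before the start of each of these 4 genes are shown, from RefSeq on GRCm38.p6. The promoter table used here, made from RefSeq, matched 6 of the 7 genes, all but Tmc2. The stretches run 5′ to 3′ on the strand of the gene, and capitals mark the motifs searched that occur in them on either strand, which are CAGCTG (an E-box, the site of basic helix-loop-helix factors such as ATOH1), GGGCGG (the GC box bound by SP factors, CCGCCC on the other strand) and TATAAA (the TATA box). Those of the tip link genes lie at chr10:60696491-60696740 on the minus strand for Cdh23 and at chr10:73821617-73821866 on the plus strand for Pcdh15, the latter inside the long span of that gene, which has several starts. Those of the others lie at chr17:28575469-28575718 on the plus strand for Lhfpl5 and at chr9:54560191-54560440 on the minus strand for Cib2, and both overlap the annotated 5′ end of the gene model, whose start differs from RefSeq's by some bases.
Cdh23: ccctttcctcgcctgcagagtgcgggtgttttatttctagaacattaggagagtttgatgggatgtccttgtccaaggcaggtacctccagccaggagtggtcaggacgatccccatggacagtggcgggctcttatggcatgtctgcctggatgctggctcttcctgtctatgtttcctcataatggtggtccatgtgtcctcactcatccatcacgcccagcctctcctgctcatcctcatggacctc
Pcdh15: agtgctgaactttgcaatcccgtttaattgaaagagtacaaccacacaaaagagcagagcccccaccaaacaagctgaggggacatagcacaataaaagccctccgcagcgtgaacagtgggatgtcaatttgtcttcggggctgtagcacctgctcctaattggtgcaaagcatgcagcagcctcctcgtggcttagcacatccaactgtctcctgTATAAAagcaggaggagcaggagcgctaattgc
Lhfpl5: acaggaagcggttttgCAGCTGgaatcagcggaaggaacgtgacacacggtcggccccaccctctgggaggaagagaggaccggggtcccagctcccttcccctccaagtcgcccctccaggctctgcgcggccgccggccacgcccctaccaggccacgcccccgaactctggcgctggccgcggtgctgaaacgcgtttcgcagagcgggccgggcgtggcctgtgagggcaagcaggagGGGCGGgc
Cib2: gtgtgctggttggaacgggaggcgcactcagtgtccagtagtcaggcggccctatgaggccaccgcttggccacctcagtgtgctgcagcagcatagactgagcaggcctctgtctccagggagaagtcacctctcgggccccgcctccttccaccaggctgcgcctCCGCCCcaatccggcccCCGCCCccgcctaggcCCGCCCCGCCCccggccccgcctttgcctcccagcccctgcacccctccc

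The stretches differ in composition. The GC content was 54.4% for Cdh23 and 50.4% for Pcdh15, near the median of 52.4% over 32851 mouse promoters of this length, and 70.8% for Lhfpl5 and 71.2% for Cib2, above the upper quartile of 61.2%. Tmie had 74.8% and Tmc1, at 41.2%, was below the lower quartile of 45.2%. CpG pairs, the sites of DNA methylation, numbered 5 and 6 for Cdh23 and Pcdh15, equal or close to the median of 6, and 24 and 15 for Lhfpl5 and Cib2. Pcdh15 held TATAAA, found in 12.4% of all promoters, and the other 5 did not. Lhfpl5 and Tmie held CAGCTG, found in 13%, and GGGCGG, found in 32.7%, occurred 4 times in Cib2, 3 times in Tmie and once in Lhfpl5. CAGATG (a further E-box form, in 14.4%), GTTGCC (part of the RFX site, in 10.4%) and ACAATG (a SOX site, in 10.7%) were not found in the 6 stretches. These matches describe letters only.

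The genes with the most similar profiles over the 6 libraries were sought among 13639 genes, by the root mean square (RMS) difference of centred log2 normalized counts. Cib2 was nearest to Mpv17l2 (RMS 0.0163), 1110034G24Rik (0.0312) and Tspo (0.0316), and Lhfpl5 to Cox19 (0.0309), Fam60a (0.0408) and Nmd3 (0.0447). Lhfpl5 and Cib2 were 0.0840 apart, with 111 genes nearer to Lhfpl5 than Cib2. Pcdh15 was nearest to Tecpr2 (0.0365), Plekha7 (0.0509) and Arhgef28 (0.0611), and Cdh23 to Tnc (0.0804), Bcl9 (0.0842) and Sipa1l3 (0.0880). The tip link genes were 0.295 apart, with 1279 genes nearer to Cdh23 than Pcdh15, so they lay further apart than Lhfpl5 and Cib2. Tmie was nearest to Llgl2 (0.0239), Pura (0.0259) and Hook1 (0.0336). Tmc1 was nearest to Man2c1 (0.0361), Mctp2 (0.0396) and Adgrv1 (0.0464), the last of which encodes the very large receptor of the ankle links between stereocilia. Adgrv1 has a transcript of 19338 nt, where transcripts of at least 8000 nt had a median log2 fold change of 0.81. Its own value of -0.05 follows from the search, which took genes close to Tmc1. Tmc2 had no near neighbour, with Eif2s3y (0.263) and Uty (0.269), both on the Y chromosome, and Gm11762 (0.308) the least distant, all scored on few Tmc2 reads.

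Of 13 other genes that serve MET or the upper end of the tip link, 6 were called higher in Kir2.1-OE, 1 lower and 6 neither, beside 15.5% of all genes higher and 5.08% lower, with a median log2 fold change of 0.39. Of the 6, Piezo2 (10724 nt), Atp2b2 (8877 nt), Myo7a (7506 nt) and Loxhd1 (7036 nt) have the longest transcripts of the 13. Of all genes of at least 8000 nt, a class that holds Piezo2 and Atp2b2 but not Myo7a and Loxhd1, 64% were called higher. Those called higher included Myo7a, whose myosin VIIa holds the link under tension, with a log2 fold change of 1.17 (adjusted p = 2.48e-04), and Ush1g, whose protein SANS joins it there, with 49.8 ± 11.4 against 28.7 ± 2.13 normalized counts (log2 fold change 0.80, adjusted p = 0.0363). Loxhd1, needed for the MET current of mature hair cells, rose from 153 ± 31.0 in controls to 415 ± 101 normalized counts (log2 fold change 1.44, adjusted p = 6.73e-04). Pdzd7, a scaffold of the ankle links, rose from 72.2 ± 7.98 to 167 ± 26.6 (log2 fold change 1.21, adjusted p = 9.54e-04). Atp2b2, the Ca2+ pump of the stereocilia, rose from 1810 ± 167 to 3904 ± 234, and Piezo2, the channel behind reverse-polarity currents, from 592 ± 153 to 1328 ± 212 (log2 fold changes 1.11 and 1.16; all SD, n = 3, edgeR's quasi-likelihood test, Benjamini-Hochberg adjusted).

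The gene called lower was Grxcr1, which shapes the stereocilia, with 113 ± 16.8 normalized counts in Kir2.1-OE and 200.3 ± 44.1 in controls (SD, n = 3; log2 fold change -0.82, adjusted p = 0.00838, edgeR's quasi-likelihood test, Benjamini-Hochberg adjusted). Tomt, needed to bring TMC proteins to the bundle, had 615 ± 61.3 and 801 ± 68.3 and a log2 fold change of -0.38 (adjusted p = 0.0140), below 1.5-fold. Ush1c, for the scaffold harmonin, was at -0.15 (adjusted p = 0.120), and Clrn1, Clrn2 and Grxcr2, at 0.08, 0.39 and -0.19, did not pass. Gipc3 passed at 0.34 (adjusted p = 0.0240), also below 1.5-fold. Once the offsets were included, only Pdzd7 (0.92, adjusted p = 0.00580) and Loxhd1 (0.79, adjusted p = 0.0117) of the 13 were still called, both higher, and Atp2b2 (0.35, adjusted p = 0.00850), Myo7a (0.39, adjusted p = 0.0206), Ush1c (-0.28, adjusted p = 0.0105) and Tomt (-0.33, adjusted p = 0.0348) passed the adjusted p-value below 1.5-fold.

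**Figure D5:**
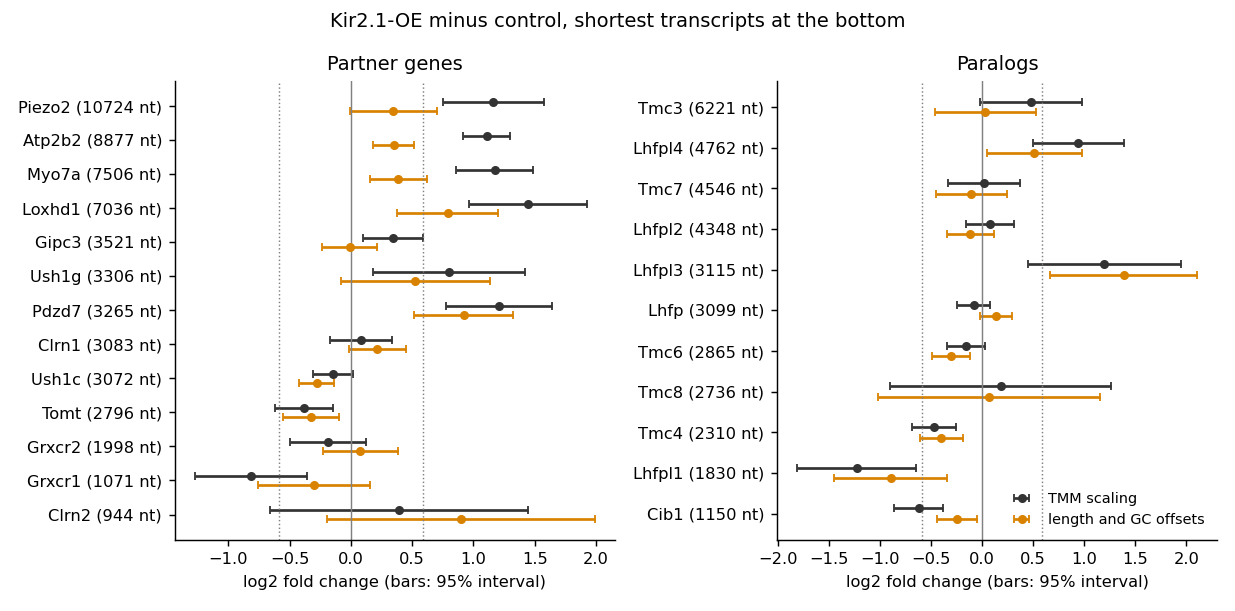
Log2 fold change, Kir2.1-OE minus control, with 95% intervals for 13 partner genes (left) and 11 paralogs (right), ordered by transcript length with the longest at the top, with TMM scaling alone (grey) and with the length and GC offsets (orange) and dotted lines at 1.5-fold. The 4 longest partners, Piezo2, Atp2b2, Myo7a and Loxhd1, all lie above 1 before the offsets, and Pdzd7, Loxhd1, Lhfpl3 and Lhfpl1 are still called with them.

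The families of Tmc1, Lhfpl5 and Cib2 hold further genes that were not counted as parts of the cochlear channel, and these were set beside them. Reads were listed for 14 such paralogs, of which 11 were tested, and 2 were called higher, 2 lower and 7 neither, beside 15.5% of all genes higher and 5.08% lower, with a median log2 fold change of 0.02. Cib1, a relative of Cib2 with a transcript of 1150 nt, had a log2 fold change of -0.62 (adjusted p = 0.00132) and of -0.25 with the offsets (adjusted p = 0.0524). Lhfpl1 was lower (-1.23, adjusted p = 0.003815), and Lhfpl3 and Lhfpl4 were higher (1.20 and 0.94, adjusted p = 0.0144 and 0.00356), whereas Lhfpl2 and Lhfp were at 0.08 and -0.08. Of the Tmc family, Tmc4 had 664 ± 58.2 normalized counts in Kir2.1-OE and 921 ± 54.2 in controls (SD, n = 3; log2 fold change -0.47, adjusted p = 0.002955), and Tmc3, Tmc6, Tmc7 and Tmc8 were at 0.48, -0.16, 0.02 and 0.18 and did not pass. Tmc5, Cib3 and Cib4 had too few reads to be tested. With the offsets Lhfpl3 (1.39) was still called higher and Lhfpl1 (-0.90) lower. Adjusted p-values in this paragraph come from edgeR's quasi-likelihood test (Benjamini-Hochberg).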

How the data were processed

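Poly(A) RNA of 6 pools was sequenced as paired reads of 150 bp. The authors mapped the reads to mm10 with the nf-core RNA pipeline and deposited Salmon expected counts, estimated reads per gene symbol that are not scaled for length or depth; 6.95% of all values were not whole. The annotation and strand setting are not given in the sources used here, and the header of the file of control replicate 1 carries another replicate number than its label. P-values test a difference between the genotypes, judged against the spread between pools.

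Rounded counts entered edgeR 4.0.16 under R 4.3.3 (TMM, filterByExpr, quasi-likelihood test, Benjamini-Hochberg adjustment over 15303 genes), without further terms. Replicates of a group differed beyond sampling noise, with a chi-square per degree of freedom of 15.7 to 31.1. Lengths and GC content came from the longest GENCODE vM21 transcript, matched for 23376 symbols directly and 678 by an older symbol, with 357 unmatched. Offsets were loess trends (span 0.4) of a library's log2 ratios to the mean of all libraries. Profiles were compared for genes averaging at least 50 normalized counts, after adding 0.5. The edgeR fits were tested on simulated data.

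The genes named were the 7 members, Kcnj2, the partner and paralog lists, and the 3 nearest profiles of each member. Members and lists were chosen with earlier results of these data known, the motifs too. Alternatives were DESeq2 size factors, library size and upper quartile scaling, no filter or at least 10 counts in every library, a replicate block, the offsets with and without it, DESeq2 1.42.0, limma 3.58.1 (voom), unrounded counts, glmTreat, the adjusted p-value alone, other lengths and each pool left out. The offsets with pools left out were chosen after seeing the data.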

Additional observations from a re-analysis of the deposited data

How the results depend on the processing

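Pcdh15, Lhfpl5 and Tmie kept their direction and their side of the adjusted p-value of 0.05 under every alternative run on a fit of all genes, apart from the offsets with single pools left out given above. Leaving out single pools gave log2 fold changes of 0.97 to 1.22 for Pcdh15, 0.72 to 1.04 for Cdh23, -0.62 to -0.51 for Lhfpl5, -0.61 to -0.45 for Cib2, 0.19 to 0.32 for Tmie, -0.16 to 0.0285 for Tmc1 and -0.17 to 0.88 for Tmc2. Tmc2 had no value under the minimum of 10 counts.

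The length and GC offsets gave 0.0079 for Tmc1, -0.21 for Cib2 (adjusted p = 0.0775) and -0.17 for Cdh23, and with a replicate block as well 0.00 for Tmc1 (0.0037 before rounding), -0.21 for Cib2 (adjusted p = 0.173) and -0.16 for Cdh23. Under the offsets, 0 of the 7 genes were called higher, 2 partners higher and 0 lower, 1 paralog higher and 1 lower, and 1051 genes higher and 454 lower among all. With the block as well these were 0, 2, 0, 1, 0, 774 and 376. With glmTreat 1 of the 7 was called higher, 0 partners were lower, 0 paralogs were called either way, and 832 genes were higher and 57 lower. At the adjusted p-value alone 2 of the 7 and 2 partners were lower, and 4184 genes were higher and 3590 lower. Upper quartile scaling shifted the median of all genes by -0.09, called 2 of the 7 lower and 1378 genes lower, and 57.9% of its calls were higher. Leaving out single pools called 0 to 2 of the 7 lower and 1 to 2 paralogs lower. With pools left out, the log2 ratio of Tmc1 to Tmc2 differed by -0.86 to -0.06. The log2 ratio of Cdh23 to Pcdh15 differed by -0.72 under the offsets and by -0.42 to 0.0472 with pools left out. The causes of these shifts were not tested.

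Replicate numbers did not pair the pools, since pools with the same number had correlations of -0.198, -0.3 and -0.272 of their deviations from the group means, and a replicate block alone changed no call of the 7 genes, with Cib2 at -0.51 (adjusted p = 0.0112). With 3 pools per genotype a single gene cannot reach an exact permutation p below 0.1, and Tmc2, with 9 to 27 reads, is limited by depth.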

Other observations

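Adgrv1, of 19338 nt, and Cdh23, of 11096 nt, both act in links between stereocilia. With the length and GC offsets the log2 fold change of Adgrv1 was -1.15, against -0.05 without them. Adgrv1 came from the search for profiles like that of Tmc1 (log2 fold change -0.02), which set its value without the offsets near 0. Its value with them then mostly reflects the trend subtracted at its length, so no test is given for it. Adgrv1 was singled out after its values were seen.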
